A study of Pan paniscus with 11 samples.

Results

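The proteasome is the barrel-shaped protease that degrades ubiquitin-tagged proteins in the cytosol and nucleus. Its 20S core is built of alpha rings, which form the gate, and beta rings, which hold the proteolytic sites. The 19S regulatory particle that caps the core has a base, whose ring of ATPases unfolds the substrate, and a lid, which removes the ubiquitin chain; activators such as PA28 and PA200 can dock in its place. Fibroblasts express the constitutive form throughout, whereas the immunoproteasome subunits replace the constitutive catalytic subunits after interferon exposure.

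The genes described here are those of the constitutive proteasome in cultured fibroblasts of the bonobo (Pan paniscus). They were found by symbol, as probe sets annotated with a single gene symbol beginning PSMA, PSMB, PSMC, PSMD, PSME or PSMF and a digit, without the immunoproteasome genes PSMB8, PSMB9 and PSMB10. This gave 42 of the 12625 probe sets on the array, for 35 genes. The name of 1 of them, PSMC3IP, begins in the same way although it encodes a protein of meiotic recombination and not a proteasome subunit. It is left out of all counts that follow, which leaves 34 genes: 13 of the core, 8 of the base, 6 of the lid, 3 activators and 4 others, namely the base assembly chaperones PSMD5, PSMD9 and PSMD10 and the proteasome inhibitor PSMF1 (PI31). Of the probe sets, 41 passed the filter on low values, 40 without PSMC3IP. The 1 that did not was a second probe set of PSMA2, which read 100, the floor of the values, in 7 of the 10 standard lines and no more than 146 in any culture. Another 3 probe sets carried such a symbol together with other symbols and were not used. The core gene PSMA6, the base gene PSMC5, the lid genes PSMD7 and PSMD13 and the activator gene PSME2 were not analysed here.

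Each culture was measured on 1 array, 11 in all. The labels describe 10 standard lines of normal animals, grown and harvested in the study's usual way. Donors of female lines 1 to 5 were 9, 2, 4, 20 and 20 years old. For male lines 1 to 5 the ages were 4, 2, 12, 17 and 19 years. The other array was a further culture of male line 1, harvested at 50% confluence. Neither the body site of the cells, the passage number nor the confluence of the standard cultures is given in the labels, and as each line has 1 culture, differences between animals and differences between cultures cannot be told apart.

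The arrays were similar in overall level, with means of 405 to 418 after trimming 2% at each end, and 52.1% to 60.9% of probe sets lay above the floor of 100. Each of the 11 fibroblast markers measured exceeded the floor in every culture, and the median intensity was at or next to the floor for keratinocyte and epithelial markers (1 of 7 above the floor in all cultures) and for endothelial (0 of 4), blood (1 of 5) and melanocyte (0 of 3) markers. Summed levels of these lists ran from 999 to 1605, 400 to 449, 584 to 890 and 300 to 485 over the cultures, and the blood marker ITGAM was at the floor in every culture. Male line 4 stood apart in the 3' to 5' signal ratio of ACTB, 2.27 against 0.67 to 1.44 in the other cultures, and the 50% confluence culture in its highest 18S ribosomal RNA control signal, 2611 against at most 313.

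Proteasome genes were detected widely and varied little between lines. Of the 34 genes, 31 were above the floor in all 11 cultures (background 64.5% of genes). The exceptions were PSMA7 (female line 1 at the floor), PSME3 (male line 1) and PSMF1 (4 lines). The median SD of log2 intensity over the 10 standard lines was 0.269 for the 34 proteasome genes and 0.425 for all 5370 genes tested, where 1 probe set, that of the highest mean, stands for each gene. Of the 34 genes, 29 had an SD below the median of all genes (background 50.0%). The comparison was repeated among genes of like intensity. In the range from 511 to 1900, which holds the middle of the proteasome genes, 16 of them had a median SD of 0.295 and all 1350 genes had 0.372. Between the lowest and the highest line, 19 of the 34 genes differed by less than 2-fold (background 26.4% of genes) and 15 by 2-fold or more. These counts describe the list and were not tested.

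The classes were described by their medians and not tested against each other. Core genes had a median SD of 0.242, base genes 0.261, the chaperones and PSMF1 0.269, lid genes 0.308 and activators 0.482. Without single lines the core, base and lid medians ran from 0.215 to 0.256, 0.237 to 0.274 and 0.274 to 0.326. The core and base ranges overlapped, and the lid range began where the base range ended. The activator median was 0.404 with a floor of 150 and 0.268 with a floor of 200. The gene of the smallest SD was PSMC1, an ATPase of the base, at 0.116, with 1840 in male line 2 and 2330 in female line 1. PSMA3, an alpha ring subunit, followed at 0.151, running from 1123 to 1483. Cytosolic ribosomal protein genes had a median SD of 0.315 (47 genes), oxidative phosphorylation genes 0.367 (53 genes), and the immunoproteasome genes 0.692.

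**Figure D1:**
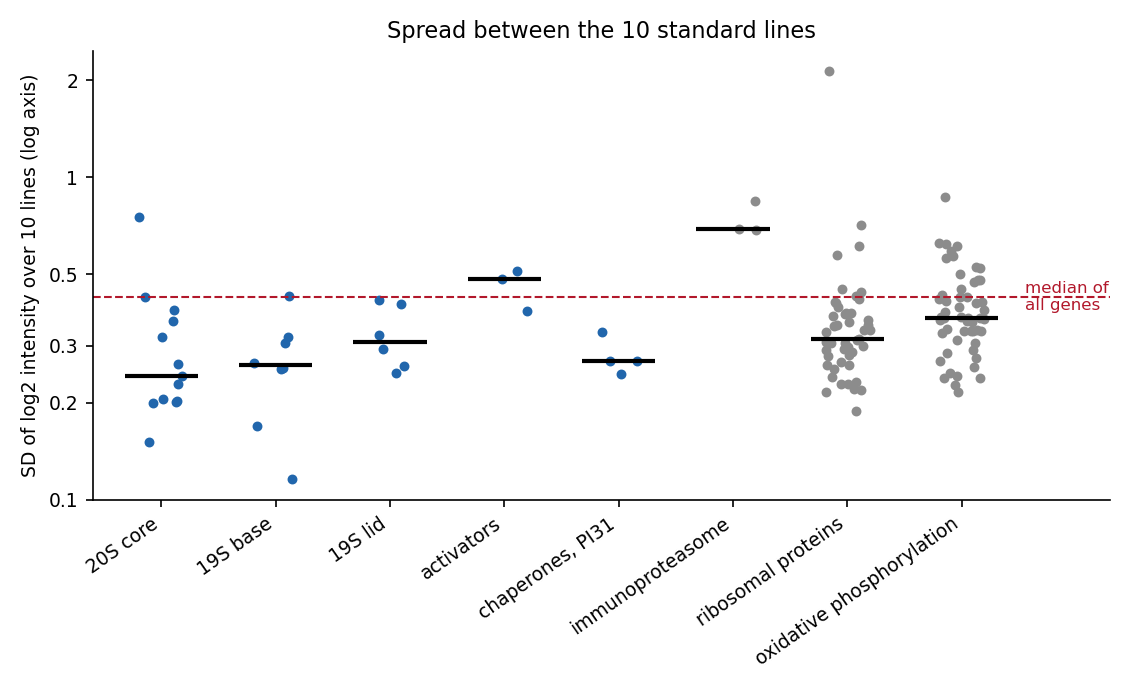
SD of log2 intensity over the 10 standard lines (log axis) for each gene, by class, with 1 point per gene and a black bar at the class median; the dashed line is the median of all genes, 0.425. Core, base and lid medians of 0.242, 0.261 and 0.308 lie below it, that of the 3 activators (0.482) and of the 3 immunoproteasome genes (0.692) above it.

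The probe sets of a gene gave a measure of technical agreement. For 6 of the genes 2 probe sets passed the filter. The SD over lines of the difference between both was 0.15 to 0.30 on the log2 scale (median 0.24). The median SD of these genes themselves was 0.28. The difference holds the noise of both probe sets, so these 2 medians cannot be set directly against each other. The SD of the difference was smallest for PSMB4 and PSMB7, at 0.15 and 0.16, and largest for PSMA4 and PSMD8, both at 0.30. The median Pearson correlation of both probe sets over the lines was 0.67. It ran from 0.54 for PSMD8 to 0.78 for PSMB4, and was alike for PSMB7 (0.67) and PSMA4 (0.66).

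Within the core, the catalytic genes differed by less than 2-fold between lines. PSMB5, which carries the chymotrypsin-like site, read 2137, 2404, 3589, 3282 and 3386 in female lines 1 to 5 and 2423, 2614, 3192, 3465 and 3068 in male lines 1 to 5. It was lowest in female line 1 and highest in female line 3, and the sexes overlapped over nearly the whole range. PSMB6, the gene of the caspase-like subunit, read 3302, 3046, 2797, 2437 and 2857 in females and 3609, 2798, 2247, 2519 and 3758 in males. PSMB7, the gene of the trypsin-like subunit, read 1260, 1636, 965, 1153 and 1426 in females and 1372, 1298, 1336, 1195 and 1312 in males. The highest line exceeded the lowest by 1.68-fold for PSMB5, 1.67-fold for PSMB6 and 1.70-fold for PSMB7. Their SDs were 0.263, 0.242 and 0.201. The 3 genes did not rank the lines alike: female line 2 was highest for PSMB7, female line 3 for PSMB5 and male line 5 for PSMB6.

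The other beta ring genes, PSMB1, PSMB2, PSMB3 and PSMB4, had SDs of 0.20 to 0.228. The alpha ring genes ran from the 0.151 of PSMA3 to the highest SD of all. PSMA7 varied most of all 34 genes, with an SD of 0.755. It read 100, 360, 455, 516 and 458 in female lines 1 to 5 and 158, 298, 278, 386 and 216 in male lines 1 to 5, so female line 1 was at the floor and the highest line was at least 5.16-fold above it. PSMA2 ran from 823 in female line 1 to 1731 in female line 2. PSMA4 read 1243, 1862, 1563, 790 and 1369 in females and 1336, 1324, 1111, 1292 and 1282 in males, so its extremes were both female while the males lay close together. PSMA5 read 418, 576, 420, 311 and 522 in females and 363, 273, 268, 475 and 479 in males. PSMA1 was lowest in male line 3, at 256, against 359 or more in the other lines.

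Among base genes, the ATPases PSMC2, PSMC3, PSMC4 and PSMC6 had SDs of 0.169, 0.257, 0.305 and 0.254. PSMD1, a large scaffold subunit of the base, varied most in this class, with an SD of 0.429. It read 1271, 1658, 1228, 671 and 1649 in female lines 1 to 5 and 1489, 1526, 1623, 1268 and 2009 in male lines 1 to 5, so 1 line, female line 4, lay far below the rest. The partner scaffold gene PSMD2 had an SD of 0.265 and was highest in male line 3, at 5315. PSMD4, the gene of a ubiquitin receptor, ran from 439 in female line 3 to 1047 in male line 5.

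In the lid, PSMD6, a scaffold subunit, had the largest SD, 0.416. It read 531, 973, 846, 577 and 908 in females and 937, 858, 416, 830 and 638 in males. PSMD3, another scaffold subunit, read 1111, 1019, 1534, 1130 and 1518 in females and 2080, 1559, 1407, 838 and 1835 in males, highest in male line 1 and lowest in male line 4. PSMD8 was at its extremes in these same lines, 5506 and 2634, but its second probe set was highest in male line 5 (967) and lowest in female line 3 (458). PSMD11, PSMD12 and PSMD14, the last the gene of the deubiquitinase that cuts the chain from the substrate, had SDs of 0.247, 0.292 and 0.259.

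The 3 activator genes differed by over 2-fold between lines. PSME3, the gene of the nuclear PA28 gamma, read 203, 279, 281, 334 and 236 in females and 100, 162, 232, 153 and 182 in males. Male line 1 was at the floor, and 4 of the 5 males lay below all females. PSME4, the gene of PA200, ran from 112 in male line 2 to 282 in female line 2. PSME1, the gene of the alpha subunit of PA28, ran from 364 in female line 3 to 1128 in female line 1.

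Deviations from the gene's own median over the 10 lines were then averaged over each class, which compares lines within a gene and does not set genes against each other. The means differed between lines by 0.39 on the log2 scale for the core, 0.46 for the base, 0.61 for the lid and 0.68 for the activators. Core genes were lowest in male line 3 (-0.29), where 11 of 13 lay below their median, against 47.0% of all genes there. They were also low in female line 4 (-0.17), where 10 of 13 did, against 48.2%. The mean of -0.21 in female line 1 included PSMA7 at the floor and was -0.085 over genes above the floor in all cultures. Lid genes were lowest in female line 1 (-0.34) and male line 3 (-0.30), in both with 6 of 6 below their median (54.5% and 47.0% of all genes were), and highest in male line 1 (0.27), with 6 of 6 above (49.4% of all genes were above their median in that line). With median centring female line 1 was at -0.204 and male line 3, at -0.273, was lowest. Base genes were lowest in female line 4 (-0.26), where 6 of 8 lay below their median (48.2% of all genes did). Their mean was highest in male line 5 (0.20), although 4 genes lay above and 4 below their median there. It was 0.17 in male line 3, with 1 of 8 below (47.0% of all genes were). That 1 was PSMC2, at its lowest of all lines (524). In male line 3 the core and the lid were thus low and the base high. The activator mean was negative in male lines 1, 2, 3 and 5, where it ran from -0.40 to -0.14. These means depended on the floor: at 200, that of male line 2 went from -0.40 to -0.019, and over the 2 activator genes above the floor in all cultures, that of male line 1 went from -0.34 to 0.048. In male line 4 the mean was 0.07, and -0.107 with quantile normalization or median centring.

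**Figure D2:**
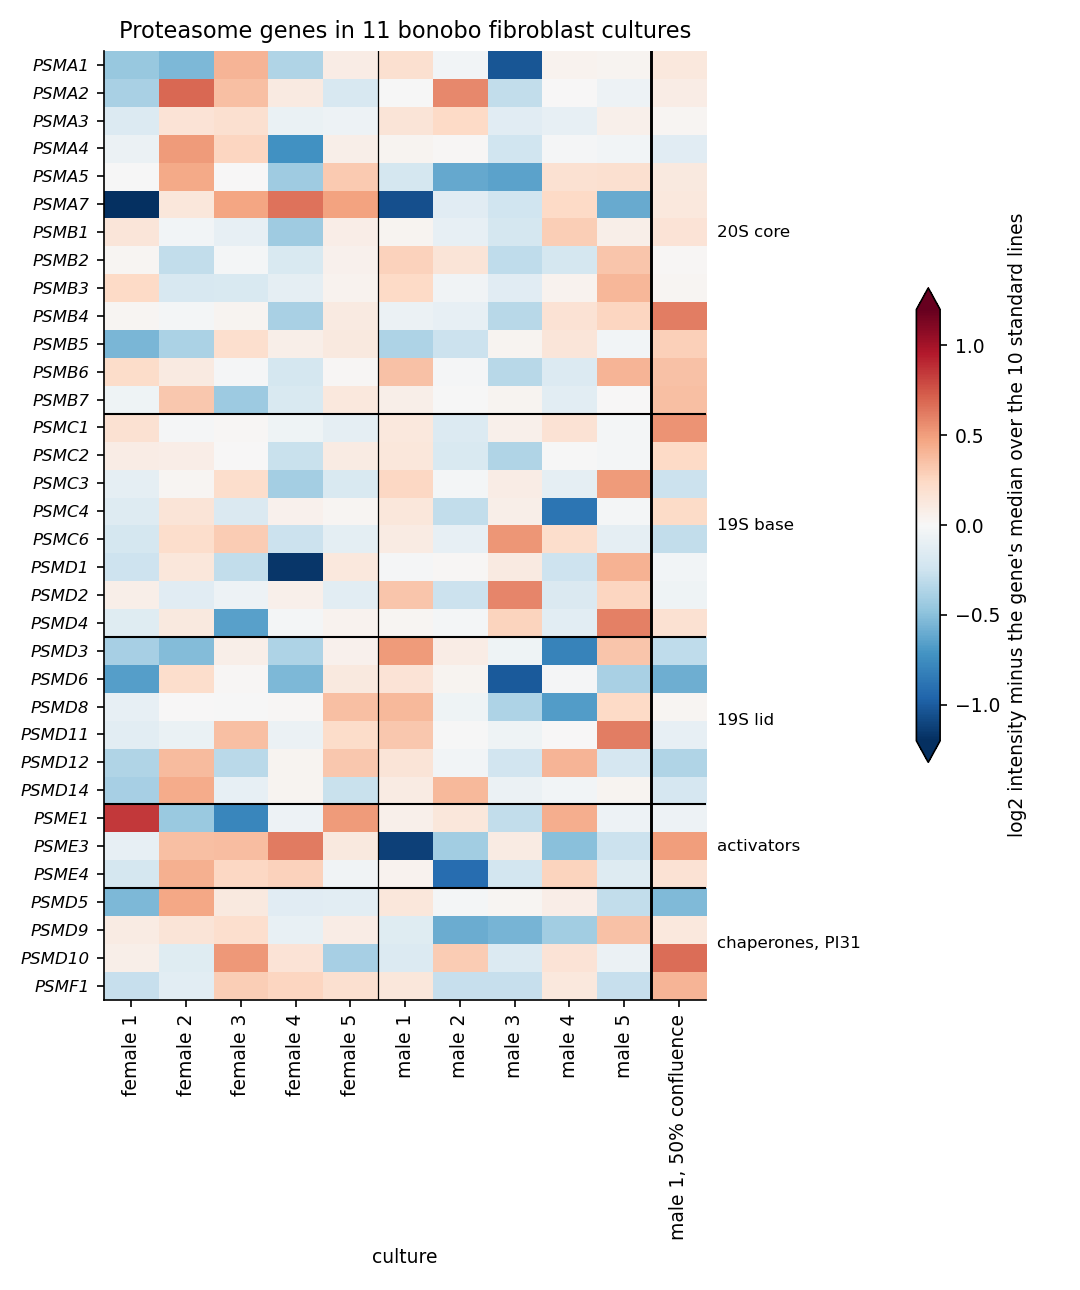
Log2 intensity minus the gene's median over the 10 standard lines, for the 34 proteasome genes (rows, by class) in 11 cultures (columns), red above and blue below the median. Male line 3 is low in the core and lid and high for PSMD2 and PSMC6 of the base; the largest single deviations are those of PSMA7 in female line 1 and PSMD1 in female line 4.

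**Figure D3:**
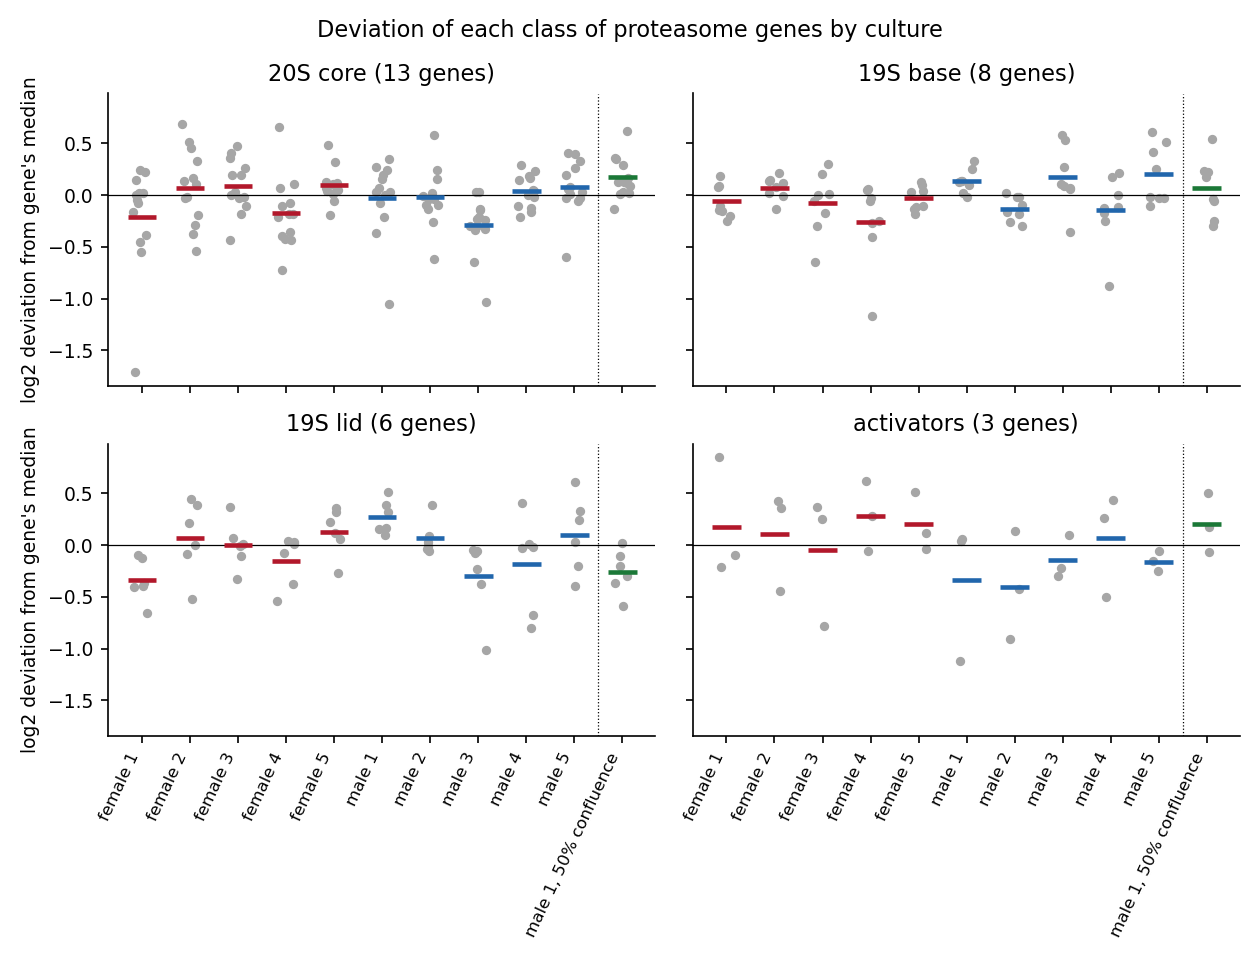
The same deviations (log2) for each class in each culture, with grey points for genes and a bar for the class mean, red for female lines, blue for male lines and green for the 50% confluence culture. Class means of standard lines stay between -0.40 and 0.28, and the lid is highest in male line 1 (0.27) and at -0.26 in its 50% confluence culture.

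Co-variation between subunits was weak. Over the 10 lines, the median pairwise Pearson correlation between the 34 genes was 0.07 (Spearman 0.11) over 561 pairs, against 0.01 for all pairs of tested genes. It was 0.17 within the core, 0.26 within the base, 0.26 within the lid and 0.24 between core and lid, but 0.04 between core and base. Cytosolic ribosomal protein genes reached 0.68 and oxidative phosphorylation genes 0.30 over the same lines. These are descriptions over 10 arrays that share scaling. Median centring of the arrays raised the proteasome value to 0.16. The closest pair was PSMB1 with PSMB4 (r = 0.85), both beta ring genes, and next came PSMA2 with the lid gene PSMD14 (0.85) and PSMA2 with PSMA3 (0.82). PSMB2 reached 0.78 with PSMB6 and 0.77 with PSMB3. At the other end were PSMB7 with the chaperone gene PSMD10 (r = -0.81), PSMA7 with PSMB3 (-0.70) and the scaffold gene PSMD2 with the lid gene PSMD6 (-0.66).

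The first comparison of groups asked whether proteasome genes differed between female and male lines. None of the 40 probe sets passed an adjusted p of 0.05 in a limma fit of sex and age over all 7333 probe sets (lowest adjusted p 0.9999), where 0.0273% of all probe sets passed. At an unadjusted p under 0.05 there was 1 proteasome probe set, that of PSME3, against 2.33% of all. The estimate was higher in males for 25 of the 40, against 50.6% of all. The log2 difference of PSME3, male minus female, was -0.71 ± 0.29 (SE; 95% interval -1.33 to -0.10; adjusted p = 1 with limma). With a floor of 200 it was -0.351. PSMD9, a chaperone of base assembly, followed at -0.36 ± 0.21. Its females read 1872, 1946, 2009, 1644 and 1866, and its males 1579, 1157, 1186, 1310 and 2228, so 4 of 5 males lay below all females. A second PSMD9 probe set had an estimate of -0.14. PSMD1 stood at 0.34 ± 0.25, an estimate that the low value of female line 4 enters: without that line it was 0.11. The catalytic genes had estimates of 0.02 for PSMB5, 0.03 for PSMB6 and 0.04 for PSMB7. The 95% interval of the sex difference lay within 2-fold in both directions for 38 of the 40 probe sets, and for 78.5% of all probe sets.

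Age gave a like picture. The same fit found 0 of 40 proteasome probe sets changed with donor age (0% of all probe sets passed; lowest adjusted p for a proteasome probe set 0.9987), and 0 had an unadjusted p under 0.05, against 3.42% of all. The slope was above 0 for 19 of the 40 (49.4% of all). The genes of lowest p were PSMA2, with a slope of -0.28 ± 0.15 log2 per 10 years, PSMA4 with -0.25 ± 0.14 and PSMB5 with 0.20 ± 0.13. Without female line 4 the PSMA4 slope was -0.116. PSMA2 read 823, 1731, 1383, 1160 and 944 in female lines 1 to 5, aged 9, 2, 4, 20 and 20 years, and 1074, 1604, 876, 1077 and 1034 in male lines 1 to 5, aged 4, 2, 12, 17 and 19 years. Both lines from animals of 2 years were the highest, and female line 1, aged 9, the lowest. Its interval ran from -0.60 to 0.05, and that of PSMB5 from -0.09 to 0.48. All 40 intervals of the change over 10 years lay within 2-fold in both directions (95.9% of all probe sets). No difference in age slope between the sexes passed among the 40 (lowest adjusted p 0.973 with limma; 0.0136% of all passed), with 0 at an unadjusted p under 0.05 against 4.84%. The male slope was the higher for 24 of the 40 (50.6% of all). Among the probe sets that stand for a gene, the lowest p was that of PSMA5, with a male minus female slope of 0.56 ± 0.38 per 10 years (95% interval -0.26 to 1.37). PSMA4 (0.37) and PSMD9 (0.35) followed, and a second PSMA4 probe set had 0.66 ± 0.36. Leaving out 1 line moved each of the 3 genes: PSMA5 was 0.357 and PSMA4 0.159 without female line 4, and PSMD9 was 0.063 without male line 5.

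The second comparison set the culture of male line 1 harvested at 50% confluence against its standard culture. With 1 culture of each there is no test. Over 33 proteasome genes above the floor in both, the median log2 difference was close to 0 (-0.02), with 15 genes higher and 18 lower at 50% confluence; over all 4497 genes in both, 49.9% were higher. Over 1.5-fold, 4 were higher (15.0% of all genes were) and 3 lower (14.3%), and 1 was over 2-fold higher (4.74%) and 0 lower (4.67%). These counts are close to the shares of all genes.

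The lid stood apart from the core and base, whose median differences were 0.09 and 0.04. The activator median of 0.01 covered 2 genes only. It left out PSME3, which was at the floor in the standard culture and at least 3.07-fold higher at 50% confluence. All 6 lid genes were lower at 50% confluence, with a median of -0.47 (range -0.81 to -0.30), against 49.7% of all genes lower. A further lid gene, SEM1, was higher and is described below. PSMD3 went from 2080 to 1186, PSMD6 from 937 to 559, PSMD12 from 398 to 278, PSMD11 from 1204 to 898, PSMD8 from 5506 to 4269 and PSMD14 from 758 to 614. Both probe sets of PSMD8 moved alike (-0.37 and -0.34). The lid genes were lower in 6 of 6 under each of the 5 other scalings and floors tried, with medians of -0.51 to -0.43. These settings could hardly change the direction, so they do not test it. The raised floors lay below every lid value in both cultures, and a pseudocount cannot reverse an order. Quantile normalization and median centring shifted the median difference of all genes by only -0.017 and -0.041, against a smallest lid difference of -0.30. In the standard culture, however, male line 1 was the line with the highest lid mean (0.27), and 0 of the 6 genes at 50% confluence lay outside the range of the 10 lines. Set against the median of those lines, a comparison chosen after seeing the data, 5 of 6 lid genes were lower, with a median of -0.25.

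Core genes were split in the same pair of cultures, with 7 of 13 higher and 6 lower and a median of 0.09. PSMB4, a beta ring gene, lay above every standard line: it read 1854 in the standard culture, 1486 to 2333 over the 10 lines and 2994 at 50% confluence. Its second probe set went from 2134 to 3242. PSMB5 went from 2423 to 3826, a 1.58-fold difference, also above the highest line (3589). PSMB7 went from 1372 to 1674, just above the highest line (1636), and its second probe set from 1347 to 1594. PSMA4 was lower, at 1336 and 1192, inside the range of the lines. Its second probe set went from 418 to 246, below the lowest line (298). PSMB6 read 3609 and 3605. PSMA7 had the largest core difference, 158 against 357, or 2.26-fold, but its value in the standard culture was the second lowest of all lines and 357 lay inside their range. Relative to the median of the 10 lines, 12 of 13 core genes were higher at 50% confluence, against 50.3% of all genes, although by a median of 0.12 only. As for the lid, this comparison was chosen after seeing the data.

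The base was mixed, with 4 of 8 genes higher and 4 lower (median 0.04). PSMC3, an ATPase, had the largest difference, 1459 against 1031. Its other lines read 1144, 1247, 1419, 927 and 1085 in females and 1211, 1310, 1138 and 1756 in male lines 2 to 5, so 1031 lay within their range. PSMC1 went from 2251 to 2985, PSMC2 from 739 to 790 and PSMC4 from 505 to 539, all 3 above the highest standard line, whereas PSMC6, at 321, was below the lowest (331). The activator PSME3 was at the floor in the standard culture and read 307 at 50% confluence, so it was at least 3.07-fold higher. PSME1 (650 against 597) and PSME4 (216 against 238) moved little. Of the chaperones, PSMD10 (gankyrin) read 827, 708, 1123, 881 and 597 in female lines 1 to 5, 702, 971, 700, 878 and 746 in male lines 1 to 5 and 1249 at 50% confluence, above all lines. PSMD5 went from 965 to 606. PSMD9 had probe sets of opposite direction (0.27 and -0.20). In all, 8 of the 34 genes at 50% confluence lay above all 10 standard lines, and 1 below, against 9.39% and 7.06% of all genes. PSMF1 was among the 8 by 1 of its 2 probe sets (161 against at most 149). The other read 108, against up to 181 in the lines, and both are near the floor. The array of this culture was also the one with the strong ribosomal RNA control signal, whose part in these differences was not tested.

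**Figure D4:**
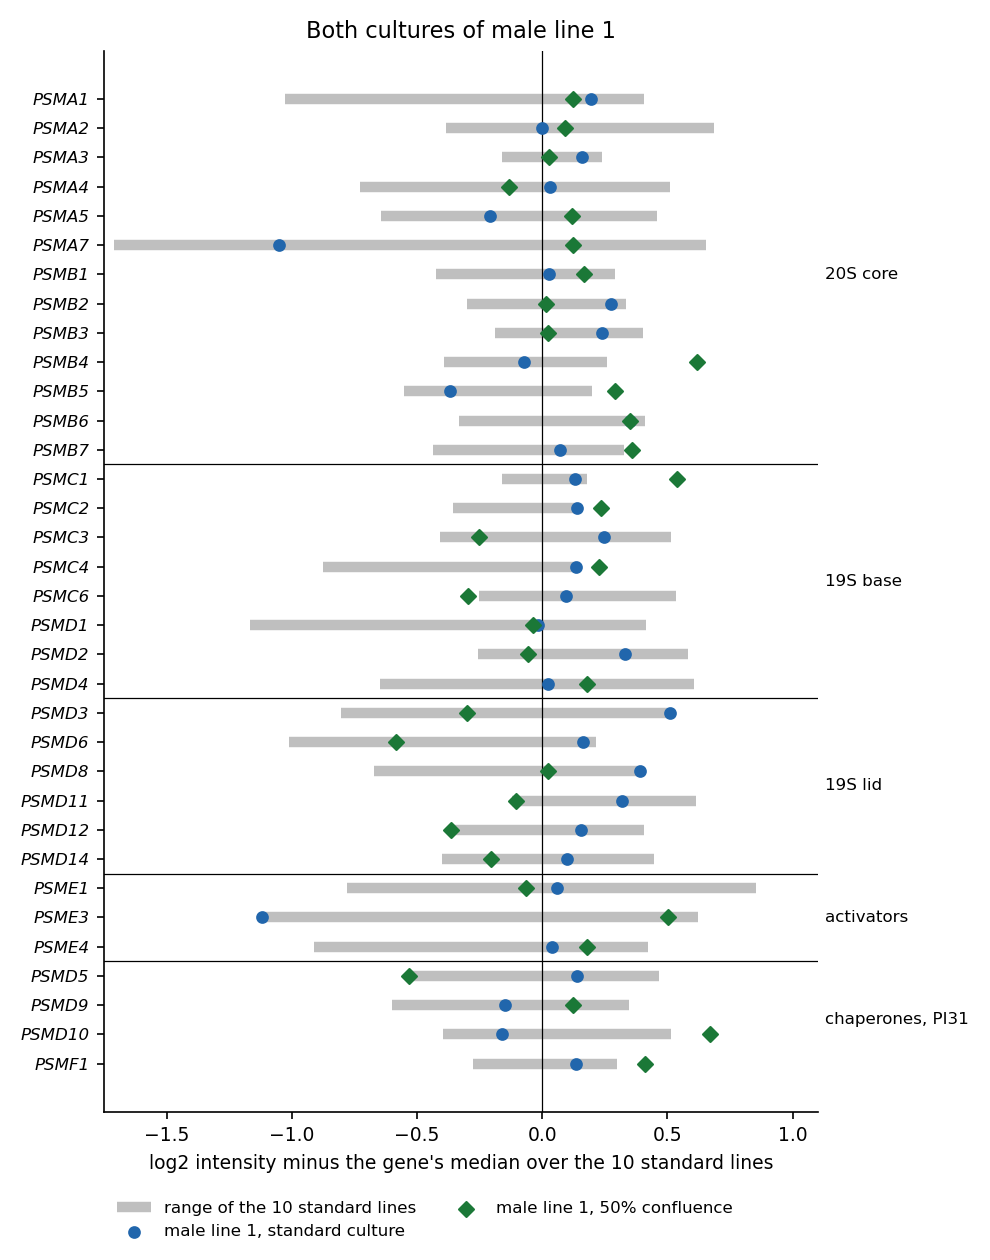
Both cultures of male line 1 for each proteasome gene, as log2 intensity minus the gene's median over the 10 standard lines; grey bars span those lines, blue circles are the standard culture and green diamonds the 50% confluence culture. In the lid the 6 diamonds lie left of the circles and none lies beyond its bar, that of PSMD12 being at the left end. For PSMB4, PSMC1 and PSMD10 the diamonds lie clearly to the right of the circles and bars.

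Genes that serve the proteasome were taken from lists of assembly and control factors and of ubiquitin and shuttling factors, of which 10 of 20 and 11 of 30 symbols were measured. None passed by sex or by age with limma over all probe sets (lowest adjusted p 1 for sex and 0.999 for age). Of all probe sets, 0.0273% passed by sex and 0% by age. At an unadjusted p under 0.05 there was 1 of 21 by sex, UBQLN2, against 2.33% of all probe sets. By age there were 0, against 3.42%. SEM1 encodes a small lid subunit outside the naming scheme of the others. At 50% confluence it differed in the direction opposite to the 6 lid genes, from 609 to 1472, above the highest standard line (1326). ADRM1, the gene of a ubiquitin receptor of the base, went from 2019 to 1655. The transcription factor gene NFE2L2 went from 498 to 1518, above the 449 to 925 of the standard lines, and NFE2L1, which encodes the factor best known for inducing proteasome genes, read 2349 and 2252. The ubiquitin ligase gene UBE3C went from 613 to 302. In the ubiquitin list the farthest were UBQLN2 (327 against 236), a shuttle factor gene, and the shuttle receptor gene RAD23B (-0.39).

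The immunoproteasome genes spread more widely over the lines. PSMB8 read 606, 104, 162, 265 and 513 in female lines 1 to 5 and 341, 224, 247, 562 and 504 in male lines 1 to 5, an SD of 0.85. PSMB10 had 1085 in female line 1 and 234 in female line 3. The activator gene PSME1, whose product is known to be induced by interferon with these subunits, read 1128, 458, 364, 599 and 889 in females and 650, 685, 508, 846 and 600 in males, so the lines high in PSMB8 were high in PSME1 too, apart from male line 5. The relation was chosen after the values had been seen, so it is described and not tested. Over the 10 lines, log2 PSME1 had a Pearson correlation of 0.92 with PSMB10 (Spearman 0.94), 0.82 with PSMB8 (Spearman 0.84) and 0.71 with PSMB9 (Spearman 0.72). Without the 2 lines farthest from the median of PSME1, female lines 1 and 3, the Pearson values were 0.80, 0.79 and 0.77. For each of the 3 genes, PSME1 had the highest r of the 34 proteasome genes, the next being 0.76 for PSMB3 with PSMB8, 0.66 for PSMB1 with PSMB9 and 0.76 for PSMB3 with PSMB10. At 50% confluence PSMB8 went from 341 to 233, PSMB9 from 198 to 139, PSMB10 from 619 to 714 and PSME1 from 650 to 597.

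**Figure D5:**
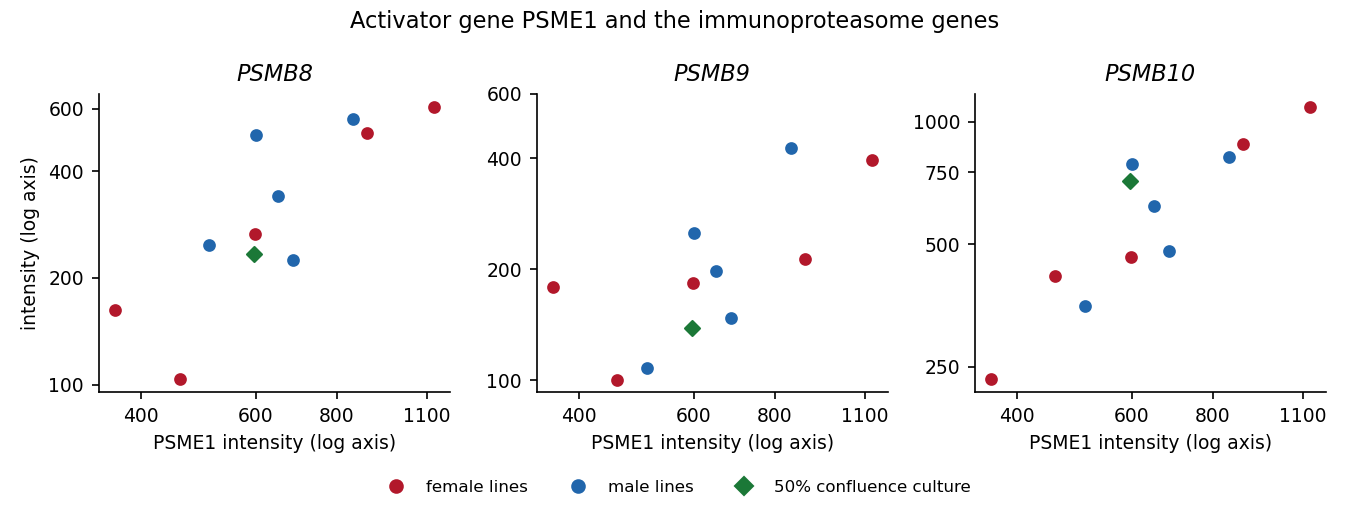
Intensity of PSME1 (horizontal, log axis) against each immunoproteasome gene (vertical, log axis), 1 point per culture, red for female lines, blue for male lines and a green diamond for the 50% confluence culture. Over the 10 standard lines r on the log2 scale is 0.82 for PSMB8, 0.71 for PSMB9 and 0.92 for PSMB10.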

How the data were processed

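Linear-scale intensities were deposited, 1 whole number per probe set of an Affymetrix human array. No source used here says how the authors summarised probes or scaled arrays. Deposited intensities show a floor of 100 in 9 arrays and of 90 in 2, male line 5 and the 50% confluence culture. Values under 100 were raised to 100 before taking log2. Without 67 control probe sets, 7333 probe sets above 100 in at least 5 of 11 arrays were tested. Symbols came from the 2016 probe annotation, and 33 of the 34 gene symbols were found in a RefSeq bonobo gene table. The probes follow human sequence, so mismatches to the bonobo can lower a signal. The number of arrays limits the precision.

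A joint model of sex and age was run in limma 3.58.1 (R 4.3.3; eBayes, trend on) for the 10 lines. A separate model added their interaction. Both used Benjamini-Hochberg adjustment over all 7333 and two-sided tests. Lines were numbered within each sex in accession order. P-values set each effect against the spread between lines, in which animal, culture and array are not separated. The fits were tested on simulated data. Values were given in every line for the catalytic genes, for the gene of largest SD and of largest harvest difference per class, and for the 3 genes of lowest p per contrast; other genes named were chosen after their values were seen. Genes at the floor in 1 culture have no harvest difference but a bound. Alternatives were quantile normalization, median centring, floors of 150 and 200, a pseudocount of 50, other filters and models, the mean over a gene's probe sets, and leaving out each line. The members, lists and tests were chosen with earlier results of these data known.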

Additional observations from a re-analysis of the deposited data

Results flagged for a closer look

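A line lay far from the others of its sex, or from the other 9 lines, in 9 of 102 groups of proteasome gene values examined (8.82%). The groups of a gene share lines, and the share over all genes is not given, so the count is not set against a background. The 2 alpha ring genes PSMA1 and PSMA4 were low in male line 3, at 256 against 510 to 598 and 1111 against 1282 to 1336 in the other males. PSMA7 was at 100 in female line 1, against 360 to 516 in the other females. Female line 4 was low for PSMB4 (1486 against 1922 to 2107), PSMC2 (557 against 673 to 718) and, among all 10 lines, PSMD1 (671 against 1228 to 2009). The base ATPase gene PSMC4 was at 251 in male line 4, against 375 to 511 in the other 9 lines, and this was the array with the highest ACTB 3' to 5' ratio. PSMD8 was high in female line 5, at 5380 against 3932 to 4244 in the other females. PSME4 was at 112 in male line 2, against 181 to 282 in the other 9 lines.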

How the results depend on the processing

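No proteasome probe set passed by sex, by age or by sex by age under any of the settings tried or without any 1 line. The lowest adjusted p over all settings was 0.999 for sex, 0.748 for age and 0.50 for sex by age. The median SD of the proteasome genes, 0.269, was 0.279 with quantile normalization, 0.292 with median centring and 0.258 with a pseudocount of 50, and 0.271 to 0.281 without each line in turn. That of the activators fell from 0.482 to 0.268 with a floor of 200. Many values of PSME3 and PSME4 lie near or below 200, so such a floor narrows their spread in any case. The activator median was 0.404 with a floor of 150 and 0.402 with a pseudocount of 50. Over genes above the floor in all arrays it was 0.433. The median pairwise correlation rose to 0.162 with median centring and ran from 0.06 to 0.094 without each line. The activator mean in male line 1, -0.34, turned to 0.048 over genes above the floor in all arrays. Set against the 10 lines, a comparison chosen after seeing the data, the 50% confluence culture gave a median of 0.089 for all proteasome genes and -0.253 for the lid. The base median of 0.04 turned to -0.004 with median centring, and that of the 2 activators to -0.033, so neither has a settled direction. The standard lines have 1 culture each, so no paired analysis by sex or age was possible. Weak signals near the floor, PSMF1 and PSME3 among them, have only bounds where a line is at 100.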
